A study of Mus musculus with 2 samples.

Results

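Antioxidant, glutathione and selenoprotein genes were described in gastrocnemius, a fast calf muscle, of young mice. The members were every gene with a protein-coding transcript whose symbol names a glutathione peroxidase (Gpx), peroxiredoxin (Prdx), superoxide dismutase (Sod), catalase (Cat), glutathione S-transferase (Gst), thioredoxin (Txn) or thioredoxin reductase (Txnrd), glutaredoxin (Glrx), selenoprotein (Seleno) or methionine sulfoxide reductase (Msr). There were 66 such genes among 55536 annotated genes, and the rule itself uses names and annotation alone. Total RNA, 300 ng for each library, was sequenced from male B6CASTF1/J mice aged 14 days, an F1 hybrid strain. There is 1 group with 2 biological replicate libraries, so the study holds no treated or control arm, and the only comparison between samples is of 1 library with the other. The labels mention 3 males and give both libraries the same donor identifier, so whether animals were pooled or differ between the libraries is not known. Spread and tests therefore describe these 2 libraries, and the spread may be technical.

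As background, superoxide made by mitochondria and oxidases is turned into hydrogen peroxide by superoxide dismutases, and the peroxide is then removed by catalase, peroxiredoxins and glutathione peroxidases. Peroxiredoxins are recharged by thioredoxin and thioredoxin reductase, and glutathione peroxidases by glutathione, with NADPH as the final source of electrons. Many of these enzymes are selenoproteins, in which the stop codon TGA (UGA in RNA) is read as selenocysteine when a stem loop in the 3′ untranslated region recruits the selenocysteine machinery. Skeletal muscle is known for disease caused by loss of selenoprotein N and for selenium deficiency myopathy.

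The libraries held 40825601 and 37329025 expected counts (estimated reads per gene), of which added control RNAs took 0.731% and 0.881%. All 6 markers of skeletal muscle fibre were detected, with a median of 14393 TPM (a transcript level normalised for length and depth), so skeletal muscle was borne out. Which muscle it was rests on the label alone. The libraries were not copies of each other, since 3704 of 17245 genes differed beyond sampling noise.

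Of the 66 genes, 53 were detected, meaning at least 1 TPM in both libraries, and 13 were not. Among all genes with a protein-coding transcript 49.5% were detected by that rule. The detected members had a median of 20.4 TPM, against 7.85 TPM over all detected genes with a protein-coding transcript. A mean of 100 TPM was reached by 8 members and one of 10 TPM by 34, and 19 lay between 1 and 10 TPM. The whole group summed to 2294 TPM in replicate 1 and 2257 TPM in replicate 2, which is 0.493% and 0.478% of the TPM of nuclear protein-coding genes. Selenow alone made up 15.6% of the members' TPM and the top 10 genes 61.1%.

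By family, the 12 other selenoproteins (those named Seleno) summed to a mean of 605 ± 11.4 TPM (SD, n = 2), the 7 peroxiredoxins to 424 ± 11.3 TPM, and the 4 superoxide dismutases and catalase to 309.9 ± 13.5 TPM. The 22 glutathione S-transferases summed to 292 ± 1.86 TPM, the 8 glutathione peroxidases to 232 ± 10.98 TPM and the 5 thioredoxins and reductases to 173 ± 2.43 TPM. Methionine sulfoxide reductases (4 genes, 124 ± 8.13 TPM) and glutaredoxins (4 genes, 115 ± 2.36 TPM) were the smallest families by summed level. Glutathione S-transferases were thus the family with the most genes but not the most transcripts. Only 14 of its 22 genes were detected, against all genes of the superoxide dismutase and catalase, thioredoxin, glutaredoxin and methionine sulfoxide reductase families.

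**Figure D1:**
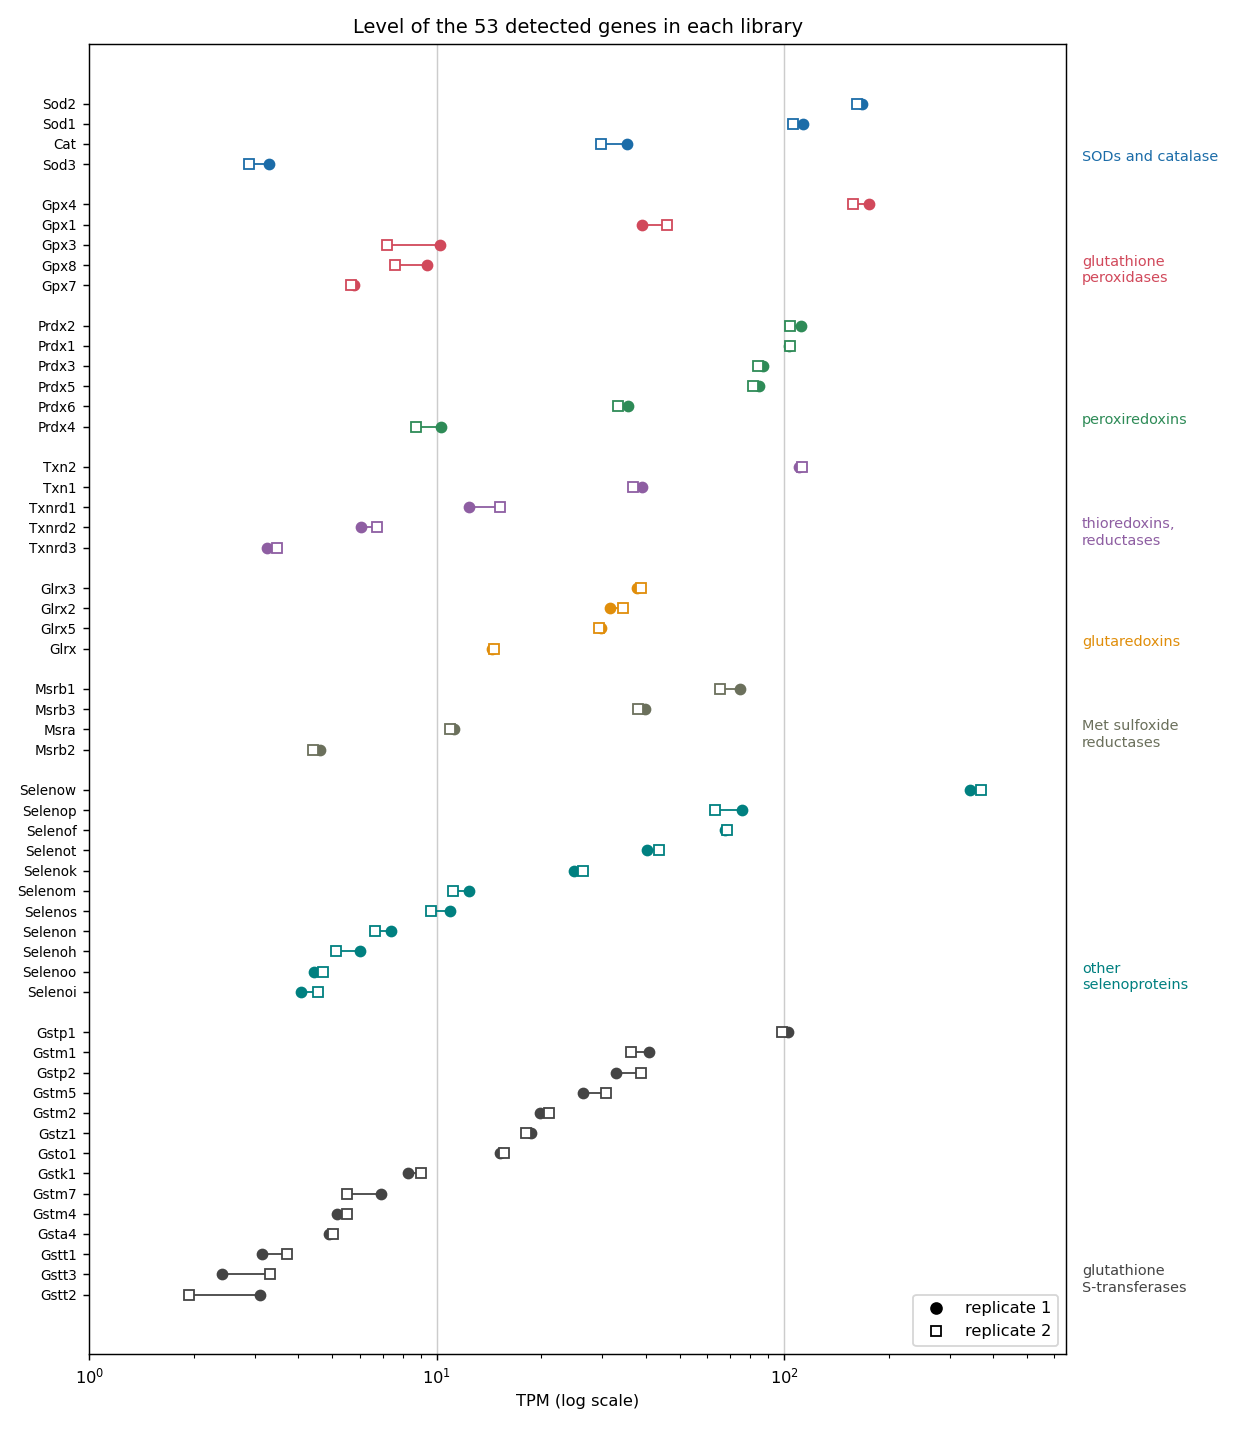
TPM of each of the 53 detected genes in replicate 1 (filled circles) and replicate 2 (open squares), on a log axis, grouped by family and ordered by mean within each. Selenow, at 343 and 369 TPM, stands above all other members in both libraries, and for most genes the 2 symbols lie close together or overlap.

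The codons that set selenoproteins apart are shown first, because 20 of the 66 genes carry an annotated selenocysteine codon and 18 of those were detected. These 20 genes together held 40.3% of the members' TPM. Each line below gives the bases around the codon in the coding sequence, 5′ to 3′, from the GENCODE M21 transcripts, with the selenocysteine codon in capitals and, where present, the cysteine codon 3 positions before it also in capitals. The position is that of the selenocysteine codon in the mm10 build.
Selenow, chr7:15920464-15920466, minus strand: tatTGTggagctTGAggctataagccc
Selenot, chr3:58585238-58585240, plus strand: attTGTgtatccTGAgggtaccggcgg
Selenom, chr11:3516273-3516275, plus strand: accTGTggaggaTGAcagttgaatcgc
Selenoh, chr2:84670381-84670383, minus strand: catTGTacgagcTGAcgcgtgtacggc
Gpx4, chr10:80054737-80054739, plus strand: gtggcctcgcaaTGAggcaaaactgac
Gpx1, chr9:108339451-108339453, plus strand: gtcgcgtctctcTGAggcaccacgatc
Gpx3, chr11:54907256-54907258, plus strand: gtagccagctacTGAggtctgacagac
Msrb1, chr17:24740158-24740160, plus strand: caatcaagattcTGAatatttagcagc
Selenop, chr15:3274848-3274850, plus strand, the first of its 10: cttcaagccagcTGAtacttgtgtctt
Txnrd1, chr10:82896037-82896039, plus strand: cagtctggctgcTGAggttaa
Txnrd2, chr16:18477772-18477774, plus strand: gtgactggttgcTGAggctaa
Selenok, chr14:29973440-29973442, plus strand: atggctggtggaTGAggaaggtaa
Selenos, chr7:66088844-66088846, plus strand: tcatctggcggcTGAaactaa

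The lines differ in where the codon lies. Selenow, Selenot, Selenom and Selenoh have a cysteine codon 3 before the selenocysteine codon, the layout of a thioredoxin-like redox pair, as do Selenoo and Selenov, 6 of 20 in all. In Selenow this codon is number 13 of 88. In the 3 thioredoxin reductases the selenocysteine codon is the last but 1 of the coding sequence, directly after a cysteine codon (tgc) and before a glycine codon and the stop: codon 498 of 499 in Txnrd1, 526 of 527 in Txnrd2 and 614 of 615 in Txnrd3. Selenos (codon 189 of 190), Selenok (92 of 94) and Selenoo (665 of 667) also carry it at the very end, so that 6 of the 20 have their first selenocysteine within the last 5 codons.  Glutathione peroxidases have it early, at codon 73 of 197 in Gpx4, 47 of 201 in Gpx1, 73 of 226 in Gpx3 and 40 of 190 in Gpx2. Msrb1 has it at codon 95 of 116, with no cysteine codon 3 before. Selenop, the secreted selenium carrier, has 10, the first at codon 59 and the other 9 between codons 259 and 377 of 380. For Selenof the position, codon 93 of 121, is that of a transcript to which the second quantification described below gave no reads.

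**Figure D2:**
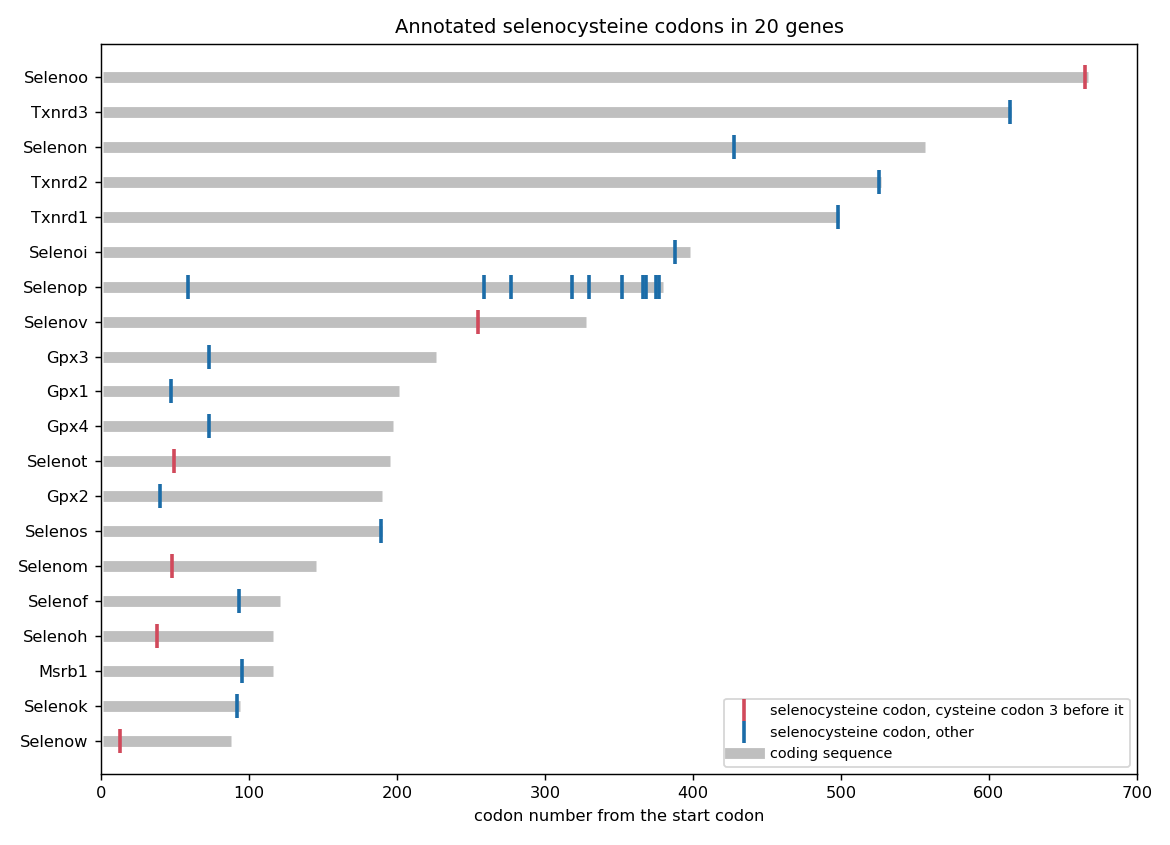
Selenocysteine codons (vertical marks) along the coding sequence (grey bars, in codons from the start codon) of the most abundant suitable transcript of 20 genes. Marks of the 3 thioredoxin reductases, Selenos, Selenok and Selenoo sit at the very end of the bar, and Selenop carries 10 marks.

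Superoxide dismutases and catalase come first in the chain. Sod2, the manganese enzyme of the mitochondrial matrix, measured 167 TPM in replicate 1 against 162 TPM in replicate 2. Sod1, the copper and zinc enzyme of the cytosol, had 114 and 106 TPM, and Sod3, the secreted enzyme, 3.28 and 2.89 TPM. The Sod1 to Sod2 ratio was 0.666 ± 0.0179 (SD, n = 2), and Sod1 was 35.6 ± 1.40 times Sod3. The order of Sod1 and Sod2 depends on which transcripts are counted: with protein-coding transcripts alone, Sod2 had 21 ± 0.382 TPM, Sod1 had 109 ± 5.38 TPM and the ratio turned to 5.21 ± 0.162. These values are from the quantification made from alignments, where protein-coding transcripts held 12.8% of the TPM of Sod2. In the second quantification they held 27.9%, so the size of that ratio depends on the quantification. Of the 31-base words of Sod2, 26.6% also occur in other genes. Catalase, the peroxisomal enzyme that splits hydrogen peroxide, measured 35.2 TPM in replicate 1 against 29.7 TPM in replicate 2. Its level was higher in replicate 1 by a TPM ratio of 1.19 (exact binomial test, adjusted p = 3.67e-05), and the quantifier's own intervals for the 2 libraries did not overlap. The test compares scaled counts, so a TPM ratio given beside its p-value here and below is not the ratio under test.

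Glutathione peroxidases were led by Gpx4, which reduces lipid hydroperoxides in membranes and guards against ferroptosis. Gpx4 had 176 and 158 TPM, second among all members. Gpx1, the main cytosolic form, had 39.0 and 46.1 TPM, so Gpx4 exceeded it 3.96 ± 0.759 times. The secreted Gpx3 had 10.2 and 7.21 TPM, and the endoplasmic reticulum forms Gpx8 and Gpx7 had 9.37 and 7.60 TPM and 5.77 and 5.66 TPM. Gpx1 was higher in replicate 2 (TPM ratio 1.18, exact binomial test, adjusted p = 8.91e-05) and Gpx3 higher in replicate 1 (TPM ratio 1.42, adjusted p = 0.000173). Relative to the other genes, the 2 thus moved in opposite directions, and their quantifier intervals were apart between libraries in both cases. When the added RNA totals set the scale, Gpx1 had a log2 ratio of 0.0032 and did not pass the test, while Gpx3 stayed higher in replicate 1. Gpx2, the form of the gut epithelium, was listed at 0 and 0.04 TPM, and Gpx5 and Gpx6 at 0 in both. Gpx4 shares 38.7% of its sequence, taken as 31-base words, with the processed pseudogene Gpx4-ps2, so part of its level is uncertain. The gene table lists that pseudogene at 18.6 and 15.7 TPM and the second quantification at 0.

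Among peroxiredoxins, thiol peroxidases that act on hydrogen peroxide at low levels, 4 had similar levels in the gene table. Prdx2 had 112 and 104 TPM, Prdx1 103 and 104 TPM, Prdx3 86.7 and 84.2 TPM, and Prdx5 84.4 and 81.6 TPM. Prdx1 and Prdx2 are mainly cytosolic, Prdx3 is mitochondrial, and Prdx5 is found in several compartments. The ratio of Prdx2 to Prdx1 was 1.04 ± 0.0585 and that of Prdx3 to Prdx5 1.03 ± 0.00301, so the first pair differed by less than its spread, and Prdx3 was slightly higher than Prdx5 in both libraries. The place of Prdx2 depends on what is counted: it had 60.7 TPM against 103 TPM for Prdx1 with protein-coding transcripts alone, and 237 against 158 TPM in the second quantification. Prdx6, the form with a single active cysteine, had 35.5 and 33.3 TPM, and Prdx4, that of the endoplasmic reticulum, 10.3 and 8.73 TPM. Prdx1 was the 1 peroxiredoxin past the test, higher in replicate 2 (exact binomial test, adjusted p = 0.0169), with a TPM ratio of 1.01 and overlapping intervals. That call was lost when total counts set the scale (adjusted p = 0.0696 in the same exact test), and its direction reversed when the added RNA totals did. Prdx6b was listed at 0 in both libraries.

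In the thioredoxin system the mitochondrial member was the more abundant. Txn2 had 110 and 112 TPM, and Txn1, the cytosolic thioredoxin, 39.1 and 36.6 TPM, a Txn1 to Txn2 ratio of 0.340 ± 0.0200. Among the reductases, which recharge thioredoxin with electrons from NADPH, the order was reversed. Cytosolic Txnrd1 had 12.4 and 15.2 TPM, mitochondrial Txnrd2 6.04 and 6.74 TPM, and Txnrd3, known from testis, 3.24 and 3.47 TPM. Txnrd1 exceeded Txnrd2 2.16 ± 0.145 times, and it was higher in replicate 2 (TPM ratio 1.23, exact binomial test, adjusted p = 0.0183). The counts of Txnrd1 before scaling were 1180 and 1199, and its quantifier intervals for the 2 libraries overlapped. Txnrd2 had an adjusted p of 0.0509 in the same exact binomial test. It passed that test, higher in replicate 2, with a filter of 50 counts (adjusted p = 0.0424) and in the second quantification (0.0158).

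Glutaredoxins use glutathione to reduce mixed disulfides or carry iron-sulfur clusters. Glrx3, a cytosolic iron-sulfur form, had 37.6 and 38.6 TPM, Glrx2 31.6 and 34.3 TPM, Glrx5, the mitochondrial iron-sulfur form, 29.8 and 29.2 TPM, and Glrx (glutaredoxin 1) 14.4 and 14.6 TPM. None of the 4 passed the test, with the lowest adjusted p for Glrx3 (0.0516, exact binomial test). Glrx3 passed the same test, higher in replicate 2, with a filter of 50 counts (adjusted p = 0.0430) and in the second quantification (0.00818). When the added RNA totals set the scale, it was called higher in replicate 1. The Glrx3 to Glrx5 ratio was 1.29 ± 0.0415 but 0.896 in the second quantification, so their order depends on the table used.

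Methionine sulfoxide reductases repair oxidised methionine, Msra on the S form and the Msrb enzymes on the R form. Msrb1, the selenoprotein among them, measured 74.4 TPM in replicate 1 against 65.3 TPM in replicate 2. Msrb3 had 39.9 and 38.0 TPM, Msra 11.2 and 10.9 TPM, and the mitochondrial Msrb2 4.61 and 4.41 TPM. The order of the 4 genes was the same in both libraries, with Msrb1 at 15.5 ± 0.951 times Msrb2. Msrb1 was higher in replicate 1 (TPM ratio 1.14, exact binomial test, adjusted p = 0.0325), and this call was lost in the second quantification (adjusted p = 0.196).

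Of the genes named Seleno, Selenow, a small cytosolic protein long known to be abundant in muscle and to fall in selenium deficiency, measured 343 TPM in replicate 1 against 369 TPM in replicate 2. It ranked number 156 among all genes with a protein-coding transcript and had 2.15 ± 0.275 times the level of Gpx4. Selenow was higher in replicate 2 (TPM ratio 1.08, exact binomial test, adjusted p = 4.28e-10), and the intervals were apart. Selenop, the secreted plasma carrier of selenium, had 75.7 and 63.1 TPM and was higher in replicate 1 (TPM ratio 1.20, adjusted p = 1.33e-11 in the same exact test). Selenot, a thioredoxin-like protein of the endoplasmic reticulum, had 40.4 and 43.7 TPM and was higher in replicate 2 (TPM ratio 1.08, adjusted p = 2.29e-08 in the same exact test). These 3 genes had the lowest adjusted p-values of all members.

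Of the remaining selenoproteins 1 passed the test. Selenof, a folding factor of the endoplasmic reticulum, had 67.8 and 68.5 TPM, Selenok 24.9 and 26.4 TPM, Selenom 12.4 and 11.2 TPM, and Selenos 10.95 and 9.62 TPM. Selenok and Selenos belong to the machinery that removes misfolded proteins from the endoplasmic reticulum. Selenon, whose human gene is mutated in a congenital myopathy and which senses calcium at the reticulum, had 7.40 and 6.64 TPM, which was 0.167 ± 0.0221 of the level of Selenot. Selenoh, Selenoo and Selenoi lay between 4.06 and 6.00 TPM. Selenoi, the ethanolamine phosphotransferase that makes membrane phospholipid, was that gene, higher in replicate 2 at 4.06 and 4.54 TPM (exact binomial test, adjusted p = 0.0392), and the call was lost in 5 of 7 alternatives, with adjusted p = 0.0669 when total counts set the scale and 0.0539 in the second quantification. Selenov, known from testis, was listed at 0 in both libraries.

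Glutathione S-transferases conjugate glutathione to electrophiles. Gstp1 was the most abundant, with 103 and 98.5 TPM, followed by Gstm1 with 40.8 and 36.2 TPM and Gstp2 with 32.9 and 38.8 TPM, which changed places between the libraries. Gstp2 was the higher of them in the second quantification (67.9 against 53.03 TPM) and with protein-coding transcripts alone (35.8 against 31.7 TPM). Gstm5 had 26.4 and 30.7 TPM, Gstm2 19.8 and 21 TPM, Gstz1 18.7 and 18.1 TPM, and Gsto1 15.2 and 15.6 TPM. Gstp2 (TPM ratio 1.18, exact binomial test, adjusted p = 0.000422), Gstm5 (1.16, adjusted p = 0.00324) and Gstt3 (2.41 and 3.32 TPM, ratio 1.38, adjusted p = 0.0129) were higher in replicate 2, and none of the 16 tested transferases was called higher in replicate 1. Over all genes 10.9% were called higher in replicate 2 and 10.6% in replicate 1. The Gstt3 call was lost in the second quantification (exact binomial test, adjusted p = 0.12). The quantifier's intervals overlapped for Gstp2, Gstm5 and Gstt3. Gstp1 and Gstp2 lie next to each other on chromosome 19 and are hard to tell apart by reads: 38.5% of the 31-base words of Gstp1 also occur in Gstp2 or other genes, and 60.3% of those of Gstp2 in Gstp1 or others. In Gstm1 the share was 28.8%.

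Of the 8 transferases not detected, 3 were of the alpha class, which is typical of liver. Gsta2 and Gsta3 had at most 0.17 TPM and Gsta1 was listed at 0, while Gsta4, which acts on the lipid aldehyde hydroxynonenal, had 4.91 and 5.02 TPM. Gstm6 (0.43 and 0.25 TPM), Gsto2, Gstm3 and Gstt4 were also below 1 TPM, and Gstp3 was listed at 0. With 3 counts taken as the floor, the libraries could show a gene at 0.0735 and 0.0817 CPM (counts scaled by the TMM-adjusted library size).

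Members next to each other in level were often not distinguishable. Of the 33 pairs of neighbours in the order of the 34 genes with at least 10 TPM, 15 changed places between the libraries and 21 lay closer than the larger SD of the pair. Selenow over Gpx4 (a gap of 189 TPM) and Sod2 over Txn2 (53.1 TPM) were clear gaps by that measure, whereas Gpx4 and Sod2 changed places.

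The annotated class of the transcripts changed several of these levels. For each gene the authors' transcript table splits the TPM among its annotated transcripts, some of which carry no full coding sequence (retained introns, processed transcripts) or are marked for nonsense-mediated decay, the pathway that destroys messages with an early stop. Over the 53 detected members the median share outside the protein-coding class was 0.892%, against 6.67% over all 10836 detected genes with a protein-coding transcript. In 10 of the 53 the share was over 25%, which is 18.9% of them, against 22.0% of all such genes. The typical member was therefore almost all coding and a minority was not.

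Sod2 was the clearest of that minority. Its processed transcript Sod2-207 took 57.3% and 57.1% of the gene's TPM in the 2 libraries and the retained intron Sod2-204 28.5% and 28.5%. The full coding transcript Sod2-201, which is 5861 bases long and encodes 222 codons, took 12.6% and 12.8%. TPM is a level per length, so short entries weigh more per read. In Prdx6, the decay-marked Prdx6-208 (76 codons, against 224 in the coding Prdx6-202) held 62.4% and 61.6%. In Glrx5 the processed transcript Glrx5-202 held 63.8% and 64.4%, and in Prdx2 the retained intron Prdx2-205 held 42.2% and 43.6%. Selenok-203, marked for decay and with 40 codons in place of 94, held 51.0% and 62.8%. The selenocysteine of Selenok is codon 92 of the longer frame.

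The second quantification, made directly from reads, kept the noncoding share of these genes high but not of all. It was 72.1% in Sod2, 82.8% in Prdx6, 85.3% in Glrx5, 83.1% in Selenok and 45.9% in Prdx2. In Gpx4 the retained intron Gpx4-203, only 280 bases long, held 34.1% and 27.0% in the first table and 0 in the second. Gstp1-203, a retained intron of Gstp1, held 34.9% and 25.8% in the first and 0 in the second, where the gene's noncoding share was still 34.1%. In Gstp2 the noncoding share was 0 in the first and 34.8% in the second. Selenof-203, a processed transcript, held about the same in both (33.8% and 35.3%).

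**Figure D3:**
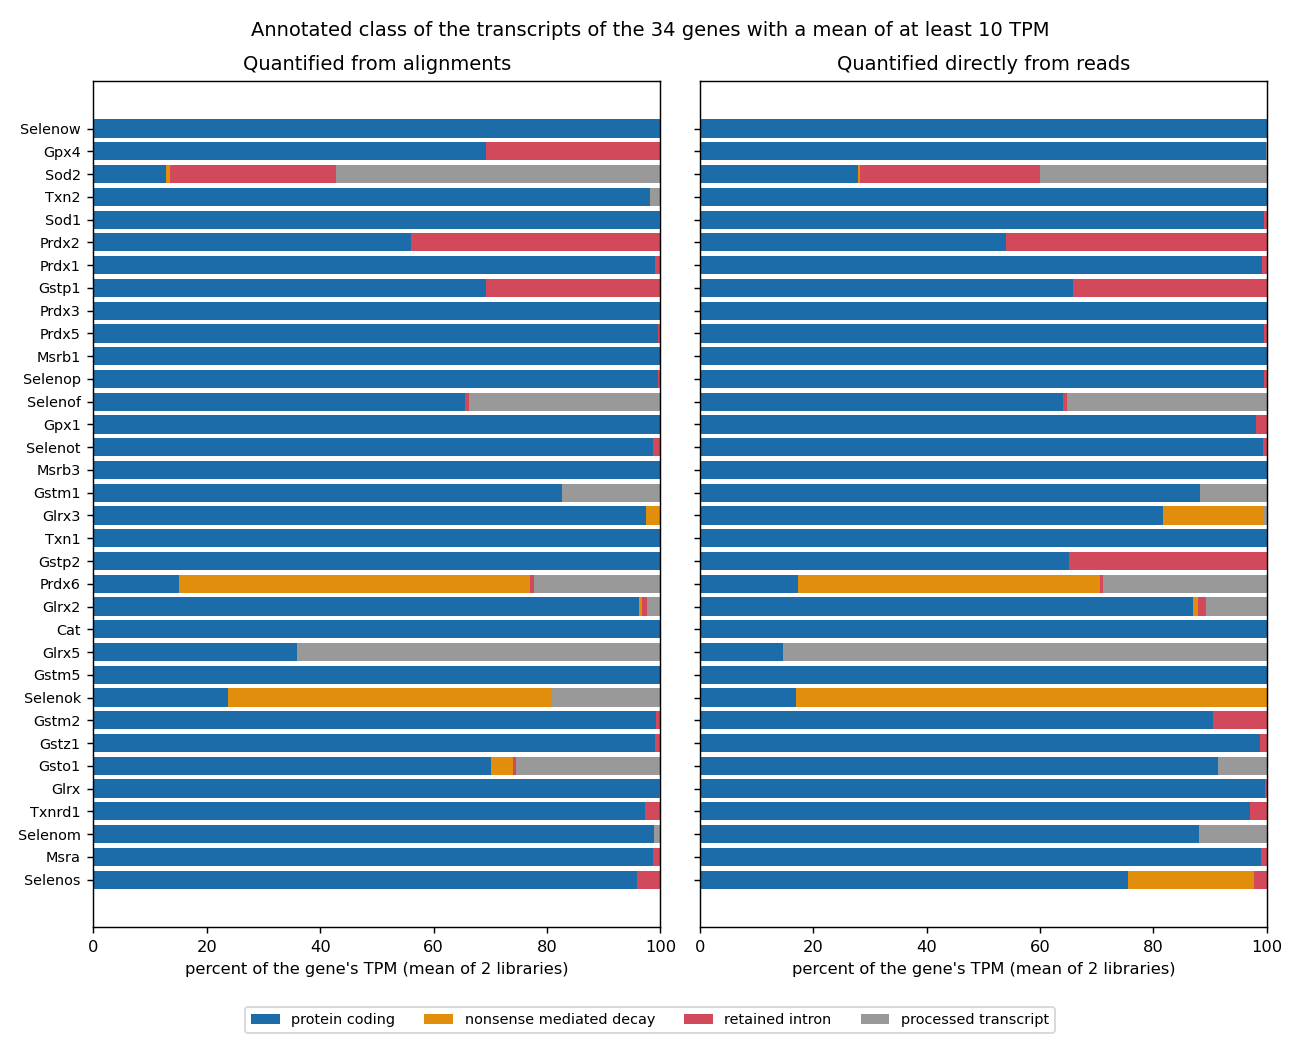
Percent of each gene's TPM by annotated transcript class, mean of 2 libraries, for the 34 genes averaging 10 TPM or more, as quantified from alignments (left) and directly from reads (right). Sod2, Prdx6, Glrx5 and Selenok are mostly outside the protein-coding class in both panels, while the retained intron part of Gpx4 is seen on the left alone.

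With protein-coding transcripts alone, all 53 members still reached 1 TPM in both libraries, but some fell in rank. Sod2 went from rank 3 to rank 23, Prdx6 from 34.4 to 5.17 TPM, Selenok from 25.6 to 6.10 TPM and Glrx5 from 29.5 to 10.6 TPM. Selenow and Gpx4 (115 ± 0.403 TPM) kept ranks 1 and 2. In Gpx4 the coding level was 115 TPM in both libraries, although its whole-gene TPM had been 176 and 158.

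**Figure D4:**
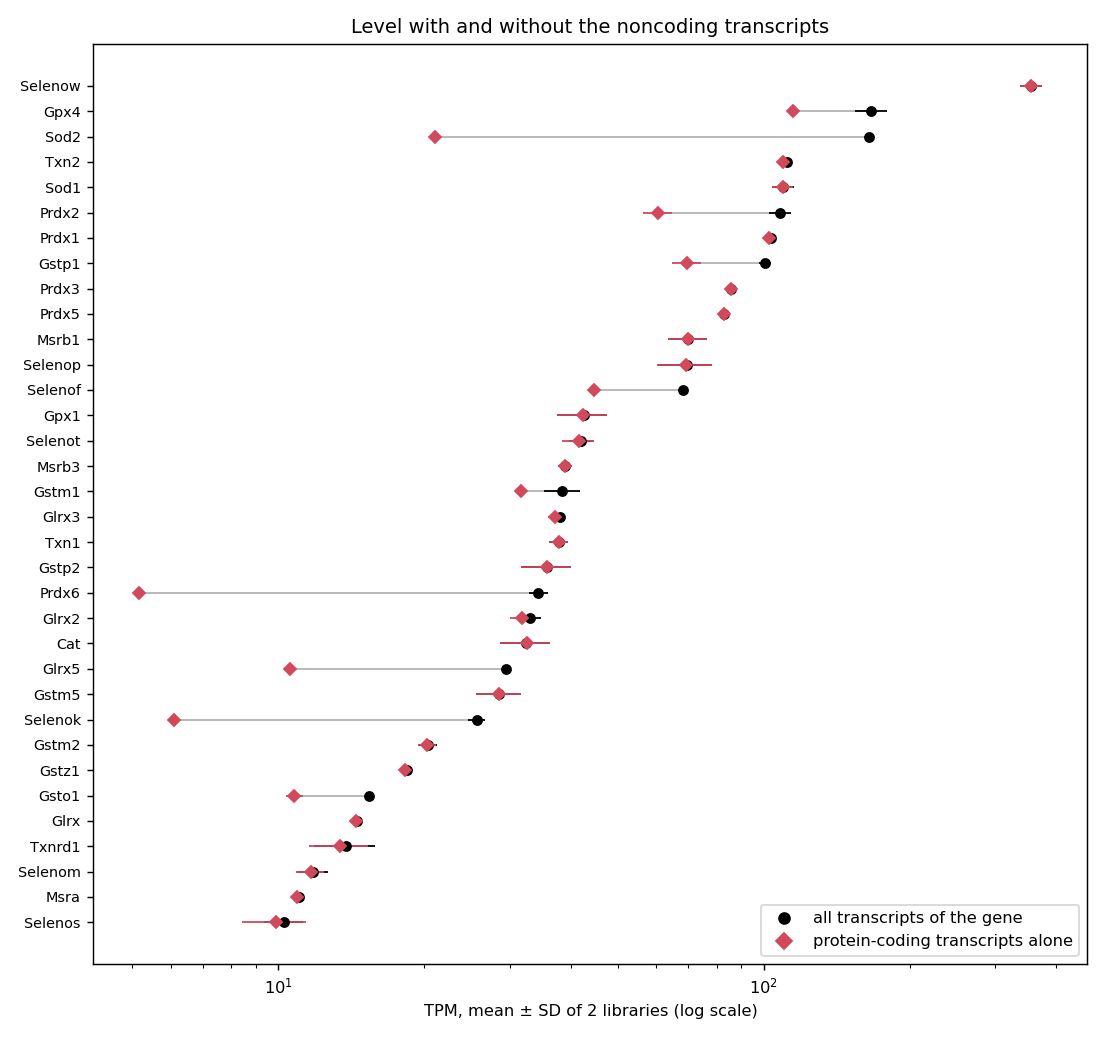
Level of the 34 genes averaging 10 TPM or more from all transcripts (black circles) and from protein-coding transcripts alone (red diamonds), mean with SD of 2 libraries as bars, on a log axis. Sod2, Prdx6, Glrx5 and Selenok move furthest to the left, from 165 to 21, 34.4 to 5.17, 29.5 to 10.6 and 25.6 to 6.10 TPM.

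Which coding transcript led also differed between the tables for some genes. The top transcript was the same in both quantifications for 46 of the 53 members, and it held the majority of the gene's TPM in 47. Prdx1-205 held 54.6% in the first table and 0 in the second, where Prdx1-202 held 78.0%. Both Prdx1-202 and Prdx1-204 encode 199 codons. The 3 main Txnrd1 transcripts (Txnrd1-201, Txnrd1-206 and Txnrd1-208) all encode 499 codons and differ in the length before the start codon, 158, 366 and 237 bases. Their shares were 41.8%, 26.0% and 13.9% in the first table and 25.9%, 51.8% and 16.3% in the second, where Txnrd1-206 led. In the first table the share of Txnrd1-206 was 35.2% in replicate 1 and 16.8% in replicate 2. Cat-202, a short form of 176 codons in place of 527, held 31.5% ± 1.53 in the first and 26.9% in the second.

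The comparison of the libraries as a whole asks how far the levels of these genes repeat. Rounded counts were compared by an exact binomial test (two-sided), with library sizes scaled by TMM, which assumes that most genes do not change. It called 13 of 55 tested members at an adjusted p of 0.05, which is 23.6%. Over all genes 21.5% were called, so the members' share is near the background. In replicate 1, 4 members were higher (background 10.6%): Msrb1, Selenop, Cat and Gpx3. In replicate 2, 9 were higher (background 10.9%): Selenow, Prdx1, Gpx1, Selenot, Gstp2, Gstm5, Txnrd1, Selenoi and Gstt3. All 13 also differed in the same direction in TPM. Scaled by the added RNA totals instead, the median of all genes moved to -0.28 on the log2 scale (replicate 2 minus replicate 1) and that of the members to -0.26. Under that scaling 35 members were called higher in replicate 1 and 0 in replicate 2. Of the 9 members above, Selenow, Prdx1 and Selenot were called in the opposite direction, and the other 6 did not pass the test. The directions given here are therefore relative to the other genes. Intervals of the quantifier were apart for 7 of the 13, namely Selenow, Msrb1, Selenop, Gpx1, Selenot, Cat and Gpx3. The test covers counting error only and compares these libraries, not conditions.

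The share called rose with the counts. Among all genes with 5000 counts or more 61.4% were called and among those with 10 to 100 counts 6.09%. Of the members 4 of 10 were called in the first class and 0 of 2 in the other, with 6 of 21 and 3 of 22 in the classes between, where 31.4% and 16.9% of all genes were called. When the spread between the libraries was allowed for by edgeR's exact test with a common dispersion, estimated from the same 2 libraries (biological coefficient of variation 0.119), 0 members were called, 0 had an unadjusted p under 0.05, and 162 of all genes were called. The differences under test themselves set that dispersion, so few calls were likely from the start. The 0 is therefore no independent check of the binomial calls.

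The size of the differences was small. On the log2(TPM + 1) scale no member differed by more than 0.5 between the libraries, which 6.1% of all genes averaging 1 TPM or more did. The members and all genes were not matched for level in this comparison. Over 0.5 apart were 1 member with a pseudocount of 0.1, 1 in the second quantification and 5 when counts were scaled by added RNA totals. The largest difference of a detected member was a decrease from replicate 1 to replicate 2 of Gstt2, which had 3.10 and 1.93 TPM and did not pass the test, and next Gpx3. The SD of the difference was 0.17 over the 53 detected members and 0.30 over 12156 genes. The members' median difference, replicate 2 minus replicate 1, was -0.04 and that of all genes -0.04. In TPM 29 members were lower and 24 higher in replicate 2, and 59.6% of the 12156 genes were lower there. By TMM-scaled counts 21 were lower and 32 higher, so the direction of the small differences depends on the scale.

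**Figure D5:**
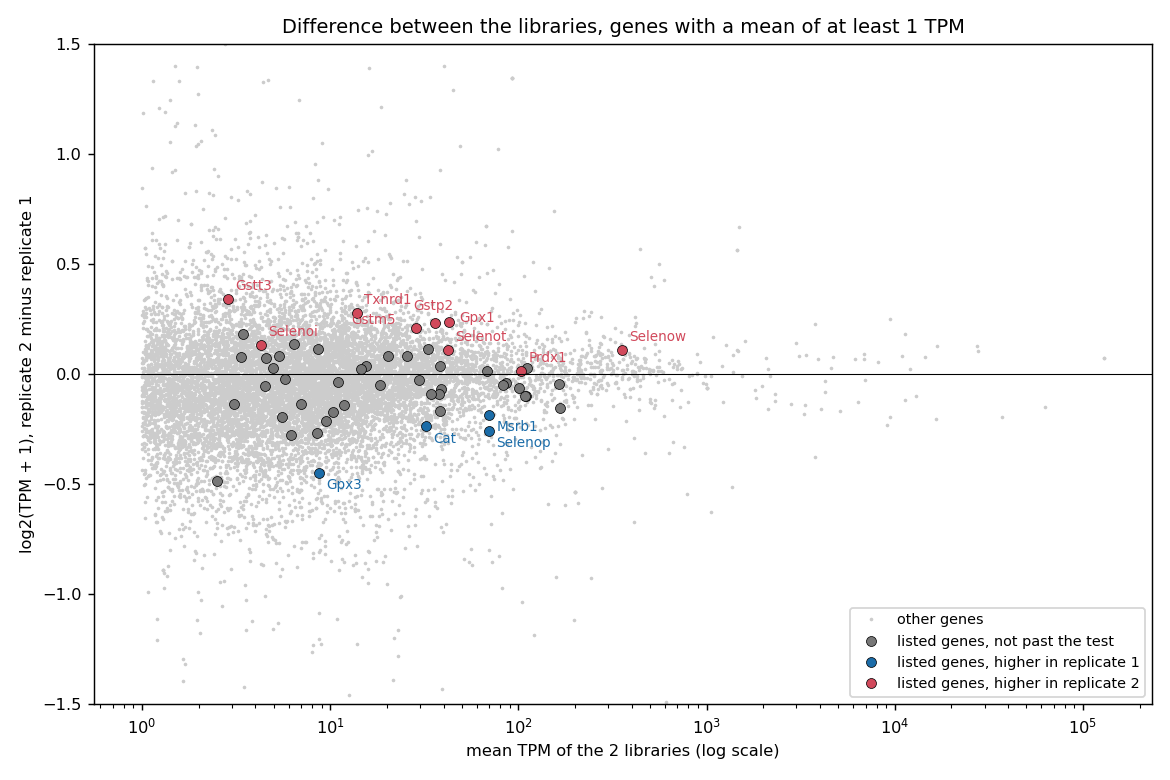
Difference on the log2(TPM + 1) scale, replicate 2 minus replicate 1, against mean TPM (log axis) for genes averaging 1 TPM or more, with the antioxidant, glutathione and selenoprotein genes as outlined circles (blue and red past the binomial test, dark grey not). No outlined circle lies beyond 0.5 on either side, and 65 other genes lie outside the vertical range of 1.5.

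Genes of other cell types differed between the libraries alongside these members. The counts of markers called in this and the next paragraph stand beside 10.6% of all genes higher in replicate 1 and 10.9% in replicate 2. Among all genes with 5000 counts or more, 61.4% were called in either direction. In bulk tissue, fewer cells of a type and less RNA per cell cannot be told apart. Red cell markers were higher in replicate 2 for 5 of 6 genes, with a summed level of 1393 and 1958 TPM. Red cells are known to be rich in Prdx2, catalase and Gpx1. Of these, Gpx1 was higher in replicate 2, catalase higher in replicate 1, and Prdx2 did not pass the test. Endothelial markers were higher in replicate 1 for 3 of 6 (sum 189.6 and 153 TPM), tendon markers for 4 of 5 with 1 higher in replicate 2 (203 and 137 TPM), fibro-adipogenic markers for 3 of 6 with 1 higher in replicate 2 (1004 and 993 TPM) and macrophage markers for 2 of 8 (61.6 and 53.8 TPM). The 4 members higher in replicate 1 were the secreted Selenop and Gpx3, the cytosolic Msrb1 and the peroxisomal Cat. Sod3, also secreted, did not pass the test (exact binomial test, adjusted p = 0.485).

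All 6 fibre markers (99109 and 106159 TPM) and 3 of 5 Schwann cell markers (119 and 165 TPM) were higher in replicate 2. So were 5 of 6 adipocyte markers, although only 2 of the 6 reached 1 TPM in both libraries. The sum over that list, which Fabp4 dominates, went the other way, from 173 to 147 TPM. Smooth muscle and pericyte markers were split, 2 higher in replicate 1 and 1 in replicate 2 of 5 (336 and 324 TPM), and satellite cell markers were higher in replicate 1 for 2 of 5 (46.4 and 40.0 TPM). No marker in any of the 10 lists was at 0 in either library. The part of these cell types in the members' differences was not tested.

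Genes that feed or control these enzymes were detected at moderate levels. For glutathione synthesis and turnover 16 of 23 genes were detected, with a median of 10.4 TPM, and 4 of 22 tested were called, all higher in replicate 1. The counts of calls in this and the following lists stand beside 21.5% of all genes called, 10.6% higher in replicate 1 and 10.9% in replicate 2. The rate-limiting ligase subunits were low to moderate: catalytic Gclc had 1.92 and 2.25 TPM and its modifier Gclm 12.96 and 11.8 TPM. Gclm, Oplah, Chac1 and Ggt5 were the 4 called. The most abundant of the list was Glo1, which detoxifies methylglyoxal with glutathione, at 56.3 and 57.6 TPM, followed by Esd, Hagh and Chac1. Glutathione reductase Gsr had 10.5 and 9.42 TPM, and the cystine transporter subunit Slc7a11 was near 0, at 0.12 and 0.05 TPM.

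NADPH supply genes were all detected, 18 of 18, with a median of 13.1 TPM, and 4 were higher in each replicate. The mitochondrial isocitrate dehydrogenase Idh2 led with 96.6 and 73.7 TPM and was higher in replicate 1 (exact binomial test, adjusted p = 3.41e-22). Taldo1 had 45.7 and 45.7 TPM and Me3 45.8 and 42.1 TPM. H6pd, the reticulum's hexose phosphate dehydrogenase, had 28.3 and 24.99 TPM and was called higher in replicate 1, and the malic enzyme Me1, with 19.9 and 27.3 TPM, was called higher in replicate 2. The pentose phosphate pathway's first enzyme G6pdx was much lower, at 2.14 and 1.87 TPM.

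Selenoprotein synthesis genes were detected for 14 of 16, with a median of 9.37 TPM. Of 15 tested 3 were called, all higher in replicate 2: Sephs2 (8.73 and 10.7 TPM), which makes the selenium donor and is itself a selenoprotein, Secisbp2l and Eif4a3. Rpl30, a ribosomal protein that also binds the selenocysteine element, had 213 and 215 TPM, and Sars, the seryl-tRNA synthetase, 52.1 and 48.2 TPM. Ncl had 48.2 and 46.8 TPM. The dedicated elongation factor Eefsec (3.37 and 2.64 TPM) and Secisbp2 (3.89 and 3.53 TPM) were among the lower ones. The receptor Lrp8 was below 1 TPM and Lrp2 listed at 0. Among 7 deiodinases and other selenium genes 2 were detected, Selenbp1 and Tpmt, and Dio2, which activates thyroid hormone, had 0.36 and 0.57 TPM and was the 1 called, higher in replicate 2.

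In the list of NRF2 regulation and targets, the main stress program for antioxidant genes, 27 of 31 genes were detected, with a median of 7.63 TPM. Of 30 tested, 9 were higher in replicate 1 and 3 in replicate 2. Fth1, the ferritin heavy chain, led with 986 and 981 TPM, followed by Nfe2l1 (121 and 117 TPM), Sqstm1 (118 and 101 TPM) and Cul3 (74.1 and 72.7 TPM). Nfe2l2, which encodes NRF2, had 14.1 and 11.7 TPM and was called higher in replicate 1, and its inhibitor Keap1 had 24.2 and 23.5 TPM. Those past the test by more than 0.5 on the log2(TPM + 1) scale went both ways. Srxn1, which repairs overoxidised peroxiredoxin, was higher in replicate 2 (4.14 and 6.88 TPM). Trp53inp1, Sesn1 and Aox1 were higher in replicate 1. A place in this list does not show that NRF2 controls a gene, Trp53inp1 and Sesn1 included, and such control was not tested. Cul3 was called higher in replicate 2 by counts while its TPM was lower there.

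Thioredoxin partners were detected for 24 of 26, with a median of 12.3 TPM, and 1 was higher in replicate 1 and 3 in replicate 2. Txnip, which binds and inhibits thioredoxin and limits glucose uptake, had 207 and 109 TPM, a log2(TPM + 1) difference of -0.92, larger than that of any detected member. Txn1 and Txn2 did not pass the test between the same libraries. P4hb had 119 and 115 TPM, Txnl1 36.6 and 35.5 TPM and Pdia3 28.9 and 34.03 TPM. Among genes linked to superoxide and peroxide production or handling, 19 of the 30 found were detected (the symbol Clic2 was not in the annotation). Of 27 tested 3 were higher in replicate 1 and 1 in replicate 2. Park7 had 301 and 348 TPM, Ucp3, the muscle uncoupling protein of mitochondria, 89.1 and 50.9 TPM, Rac1 88.7 and 82.7 TPM and Ucp2 56.7 and 42.5 TPM. Ucp3 and Ucp2 were called higher in replicate 1 and Park7 in replicate 2. Most oxidase subunits were low, with Nox4 at 1.12 and 1.06 TPM, Cybb at 0.77 and 0.76 TPM and Nox3 listed at 0.

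Promoters were searched for the core of the antioxidant response element, TGACNNNGC on either strand, in RefSeq windows of GRCm38.p6 running from 250 bases before to 50 after each start. Of the 66 genes 60 had a window. The core was present in 8 of 60 genes (13.3%), and in 14.0% of all 27025 genes with such windows. The 8 were Sod1, Prdx1, Gstm5, Selenok, Txnrd1, Gstm7, Msrb2 and Gsta3. Of these sites 3 are shown with 10 bases either side, those of Prdx1, Txnrd1 and Gstm5, which were called higher in replicate 2. Of the other holders, Sod1, Selenok, Gstm7 and Msrb2 did not pass the test and Gsta3 was not tested. Selenow, Gpx1, Selenot, Gstp2, Selenoi and Gstt3 were also called higher in replicate 2 and had no core in their windows. A link between the core and the calls was not tested. The match is in capitals and the sequence is on the gene's strand.
Prdx1, chr4:116685466-116685474, plus strand gene: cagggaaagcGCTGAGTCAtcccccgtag
Txnrd1, chr10:82859114-82859122, plus strand gene: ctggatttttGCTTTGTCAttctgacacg
Gstm5, chr3:107895812-107895820, plus strand gene: caccgcccacTGACCACGCggagggcggg

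In Prdx1 and Txnrd1 the match is on the opposite strand and centred 129 and 88 bases before the start, and in Gstm5 it is on the gene's strand, 38 bases before. A match describes letters, not binding. For comparison, a myogenic E-box, CAGCTG, which reads the same on both strands, was in 6 of 60 genes (10%) and in 18.3% of all. Its holders were Gpx4, Selenop, Gstm5, Gstz1, Gpx7 and Gstm6.

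The second quantification gave higher TPM for every detected member, with a median ratio to the gene table of 1.42 and a range of 1.20 to 2.19. Over 10821 detected genes with a protein-coding transcript the median ratio was 1.35, so higher values were common in that table. Prdx2 (2.19), Sod2 (2.02), Glrx5 (1.96) and Gstp2 (1.90) had high ratios. Selenow stayed first, with 487 and 528 TPM, and Sod2 came second with 334 and 330.1 TPM. All 53 members were detected there as well.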

How the data were processed

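Total RNA-seq of gastrocnemius from 2 biological replicate libraries (1 group) was used. Per the labels, the build was mm10 with GENCODE M21, and ERCC control RNAs were added, with a spike profile meant for stranded, rRNA-reduced libraries. The aligner and quantifier were not given in the sources used here. Deposited by the authors were expected counts (estimated, not whole, not normalised) per gene and per transcript from transcriptome alignments, together with another transcript quantification made from the reads themselves. TPM values in the deposited tables were scaled by the authors over all entries, added RNAs included, with an interval from the quantifier in the gene table. Numeric entries (26248, with 3 and 1 counts) were left out. The reference does not hold the second parent's alleles.

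Counts were rounded, scaled by TMM (edgeR 4.0.16, R 4.3.3) and compared by a two-sided exact binomial test over all 17245 genes with at least 10 counts, adjusted by Benjamini-Hochberg at 0.05. The test was checked on simulated counts, where it slightly exceeded the limit first set for false calls, and the limit was then loosened. Differences are log2(TPM + 1). Ratios and SD are over the 2 libraries. Members and lists were chosen with earlier results of these data known. Every member could be named, with values per library at a mean of at least 10 TPM or past the test. Values of members outside that rule were added after they were seen. Of each pathway list the 4 genes highest by mean were to be named with those past the test by over 0.5. Other list genes were named for their role after values were seen. The 10 marker lists are skeletal muscle fibre, erythroid, macrophage, endothelial, fibro-adipogenic, tendon, adipocyte, smooth muscle and pericyte, Schwann and satellite cell. Alternatives were other scalings, count filters, pseudocounts, thresholds, the second quantification and leaving out a library. Levels from protein-coding transcripts alone were added after the transcript shares were seen.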

Additional observations from a re-analysis of the deposited data

How the results depend on the processing

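The 53 detected members stayed 53 at a threshold of 0.5 TPM, in the second quantification, in either library alone and with protein-coding transcripts alone, and were 44 at 5 TPM. Their median TPM was 30.4 in the second quantification, 43.5 when rescaled within nuclear protein-coding genes and 13.4 with protein-coding transcripts alone, against 20.4 as reported. Members called were 11 to 15 under the other scalings, filters and the second quantification, except that scaling by added RNA totals called 35 (35 higher in replicate 1, 0 in replicate 2, and 9052 genes in all) and edgeR's exact test called 0 (0 in each direction, none at an unadjusted p under 0.05, 162 genes in all). The dispersion of edgeR's test came from the same 2 libraries, so few calls were likely there. The call was lost for Prdx1 and Selenoi with total gene counts, for Selenoi with a filter of 1 count, and for Msrb1, Selenoi and Gstt3 in the second quantification. Calls higher in replicate 2 were gained by Glrx3 with RLE, another scaling of library size. Glrx3 and Txnrd2 gained one with a filter of 50 counts, and Glrx3, Txnrd2 and Gstp1 in the second quantification. Total gene counts in place of TMM called 4 members higher in replicate 1 and 7 in replicate 2. Over all genes, 49.4% of calls were higher in replicate 1 with TMM, 56.8% with total gene counts and 96.7% with added RNA totals, which shift the median gene by -0.28 (log2, replicate 2 minus replicate 1). Relative to that shift the members moved little, with a median of -0.26. Under it the log2 ratios of scaled counts turned from positive to negative for 28 of 55 tested members. Those among them that passed the test under either scaling were Selenow (-0.13), Gpx4 (-0.26), Sod2 (-0.28), Txn2 (-0.24), Prdx1 (-0.19), Gstp1 (-0.21), Prdx3 (-0.28), Selenof (-0.22), Selenot (-0.10), Msrb3 (-0.27), Glrx3 (-0.17), Glrx2 (-0.20), Glrx5 (-0.26), Gstm5 (-0.029), Gsto1 (-0.21), Glrx (-0.22), Txnrd1 (-0.12), Msra (-0.24) and Selenoi (-0.043). The median log2 difference of members was -0.04 in TPM, 0.034 in TMM-scaled CPM and -0.26 when scaled by added RNA totals, and the cause of the difference was not tested. Of 29 ratios between related members 20 were above 1 in both libraries, and 18 to 20 under the alternatives. Reversed were Gpx1 over Cat (0.501) and Prdx2 over Prdx1 (0.961) in counts without length, Glrx3 over Glrx5 (0.896) in the second quantification, and, with protein-coding transcripts alone, Sod1 over Sod2 (5.21), Prdx2 over Prdx1 (0.590) and Selenok over Selenos (0.621). No paired analysis was possible because there is 1 group, and leaving out a library leaves no comparison between libraries. Depth limits calls for members with few counts, such as Gstt1, Gstt2 and Selenoh.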

Other observations

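A further 12 symbols match the same name patterns but have no protein-coding transcript, and most are processed pseudogenes. Gpx4-ps2 had 406 and 321 counts (18.6 and 15.7 TPM) and Selenok-ps6 27 and 29 counts (4.58 and 5.28 TPM) in the gene table, and both were at 0 in the second quantification. The other 10 had at most 3 counts in either library.

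Grouped by the compartment of the protein, 12 members assigned to the cytosol summed to 924 and 933 TPM (40.8% of all members' TPM). The 7 mitochondrial members summed to 409 and 404 TPM (17.9%). No compartment was assigned to 26 members (13.2%), every glutathione S-transferase among them. A further 5, Gpx4 and Prdx5 included, were listed under several (14.6%), so these sums are not a full split by compartment. Most of the TPM of the mitochondrial Sod2 and Glrx5 came from transcripts outside the protein-coding class. All 7 mitochondrial members were detected. With TMM scaling none of them was called between the libraries by the exact binomial test, which called 21.5% of all genes. That 0 depends on the setting. Txnrd2 was called with a filter of 50 counts and in the second quantification. With added RNA totals Sod2, Txn2, Prdx3 and Glrx5 were called higher in replicate 1, as were 8756 of all 17245 genes tested. The 9 members of the endoplasmic reticulum were all detected and summed to 189 and 188 TPM. The 3 detected secreted members, Selenop, Gpx3 and Sod3, summed to 89.2 and 73.2 TPM with the undetected Gpx5 and Gpx6, and 2 of the 3 were called higher in replicate 1, as were 10.6% of all genes.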
